A study of Homo sapiens with 12 samples.

Results

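All 12 arrays of the series were used to describe the response to Y15 that TPC1, BCPAP and K1 cells had in common. The 3 lines are established human papillary thyroid cancer cell lines, and RNA of each was hybridised to Illumina bead arrays. Of the 12 arrays, 6 came from cells given 10 µM Y15, with 2 arrays each of TPC1, BCPAP and K1. The other 6 came from untreated cells of the same lines, again with 2 arrays each. Y15 inhibits the autophosphorylation of focal adhesion kinase (FAK), the tyrosine kinase encoded by PTK2. The untreated cells are labelled as given no treatment, with no vehicle named. K1 was kept in another medium than TPC1 and BCPAP, so that line and medium cannot be told apart when lines are compared. The array titles give the dose and no time. The methods describe 24 hours of treatment, on duplicate plates, for another cell line, TT. They do not say whether the 2 arrays of each group used here came from separate cultures. The p-values therefore measure only the spread between these samples.

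FAK sits at focal adhesions, where integrins hold the cell to the extracellular matrix, and passes signals on from there to survival and growth pathways. Cells that lack amino acids, that carry misfolded protein or that are otherwise stressed slow protein synthesis and make the transcription factor ATF4, which switches on amino acid synthesis, amino acid import, tRNA charging and further regulators such as DDIT3 (CHOP). This is called the integrated stress response. Genes of mitosis are switched on together late in the cell cycle, and many of their promoters carry a short element called CHR beside CCAAT boxes.

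In each line the change of a gene was the mean log2 signal of its Y15 arrays minus that of its untreated arrays. The mean of the 3 within-line changes is called the mean change here, and it was tested with limma over 12378 genes. A gene with a Benjamini-Hochberg adjusted p under 0.05 is called higher or lower. A called gene is named shared where, in each of the 3 lines, both Y15 arrays lay beyond both untreated arrays in the direction of the mean change. Quantile normalization gives all arrays the same distribution, and the median mean change of all genes was 0.

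Y15 raised 2384 genes on average over the 3 lines, 19.3% of those tested, and lowered 2345, or 18.9%. The counts of genes called in each list below are to be read beside these shares, and no list was tested against them. Shared genes numbered 917 higher (7.41%) and 851 lower (6.88%). Together 4729 genes were called, 38.2% of those tested. Of these, 1829 rose and 1698 fell with the same sign in every line, while 1202 had the opposite sign in at least 1 line, though by more than 1.5-fold in only 5. Most shared changes were small. Of the 917 shared genes that rose, 41 rose at least 2-fold on the mean and 43 at least 1.5-fold in each line, with a median mean change of 0.33. Of the 851 that fell, 27 fell at least 2-fold and 50 at least 1.5-fold in each line, with a median of -0.39.

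The size of the shared response differed between arrays. Over the shared genes that rose, the median change was 0.4 and 0.42 on the Y15 arrays of TPC1, 0.29 and 0.27 on those of BCPAP, and 0.36 and 0.19 on replicates 1 and 2 of K1. Over those that fell it was -0.48 and -0.49 for TPC1, -0.31 and -0.3 for BCPAP, and -0.43 and -0.22 for K1. Replicate 2 of K1 with Y15 thus lay nearest to untreated cells in both directions. Leaving out an array loosens the rule for shared genes, so counts without this array are no measure of its effect alone. TPC1 had the largest change of the 3 lines for 526 of the 917 shared genes that rose and 483 of the 851 that fell. A different effect of Y15 between the lines was called for 2293 genes by the F test of limma, 18.5% of all, and for 19.2% and 22.4% of the shared genes that rose and fell.

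Depth and identity of the arrays touched the results as follows. Between 16004 and 20376 probes were above background on an array, with the fewest on replicate 2 of untreated BCPAP, which also had the lowest mean signal (215, against 281 to 393 on the other arrays). PAX8, FOXE1, KRT8 and KRT18, of thyroid follicular and epithelial cells, were above background on all 12 arrays, whereas TG, thyroglobulin, the precursor protein of thyroid hormone, and SLC5A5, the sodium-iodide symporter, were on none, and TSHR, the thyrotropin receptor, was on 1. The epithelial markers KRT7, EPCAM, NKX2-1 and KRT19 were on 10, 5, 4 and 4 arrays. Of 6 endothelial markers, 0 were above background on all arrays and 4 on none. Of 7 leukocyte markers, 1 was on all arrays, 3 on some and 3 on none, among them PTPRC, the pan-leukocyte marker. Of 8 fibroblast markers, 2 (ACTA2 and PDPN) were on all arrays, 6 on some and 0 on none.

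**Figure D1:**
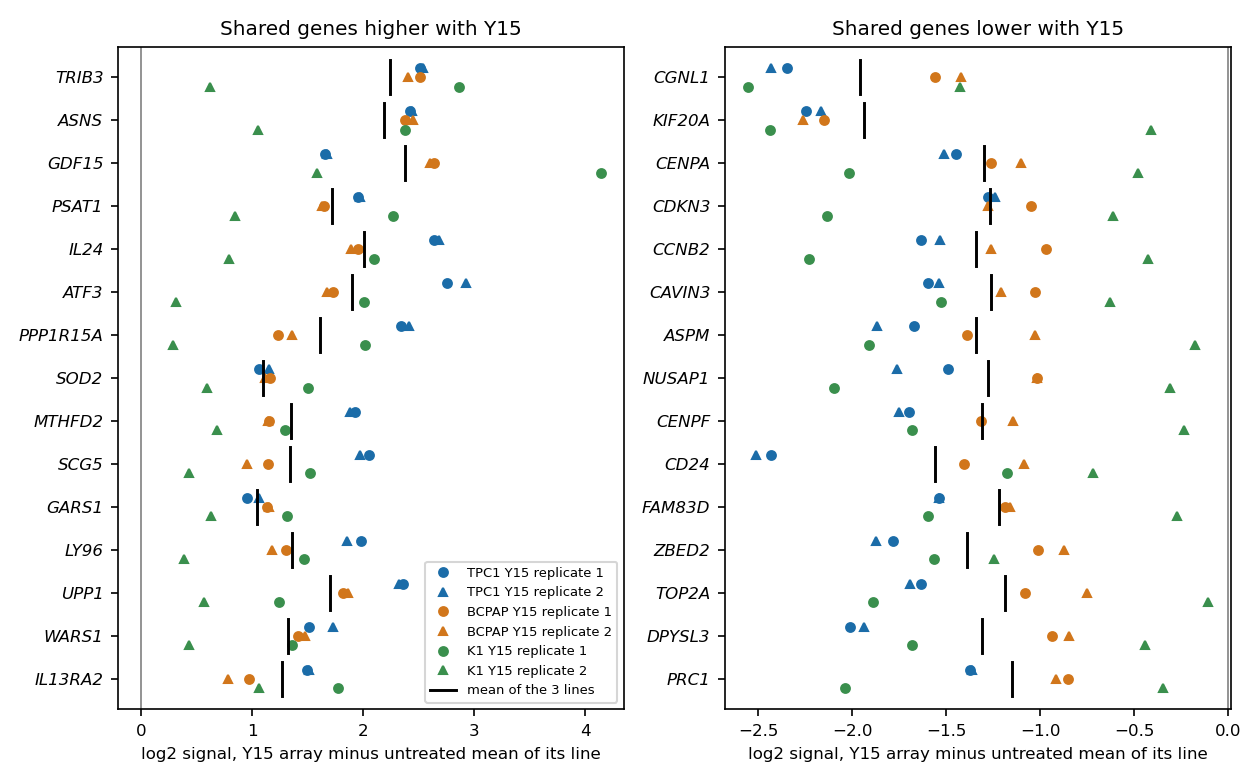
Change in log2 signal of each Y15 array against the untreated mean of its line (horizontal axis) for the 15 leading shared genes higher with Y15 (left) and lower with Y15 (right), ranked by the line in which the gene changed least. Circles are replicate 1 and triangles replicate 2, colours are lines, and black bars are the mean of the 3 lines. K1 replicate 2 (green triangles) lies nearest to 0 for most genes, as for KIF20A.

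The shared genes that rose were led by genes of the ATF4 pathway. Ranked by the line with the least change, the first 15 were TRIB3, ASNS, GDF15, PSAT1, IL24, ATF3, PPP1R15A, SOD2, MTHFD2, SCG5, GARS1, LY96, UPP1, WARS1 and IL13RA2. The pseudokinase TRIB3, an ATF4 target that restrains ATF4, had log2 signals of 11.5 and 11.52 with Y15 against 8.88 and 9.09 untreated in TPC1, 11.71 and 11.6 against 9.18 and 9.21 in BCPAP, and 10.57 and 8.33 against 7.62 and 7.79 in K1. Every Y15 array was above the untreated arrays of its line, as the definition of shared asks, and K1 replicate 2 lay closest to them. The mean change was 2.24 (standard error 0.278, adjusted p = 0.000111), a 4.73-fold rise. ASNS, asparagine synthetase, had signals of 11.25 and 11.27 with Y15 against 8.83 and 8.83 untreated in TPC1, 11.61 and 11.68 against 9.22 and 9.25 in BCPAP, and 11.33 and 10.0 against 8.91 and 8.99 in K1. Its untreated level was nearly the same in the 3 lines and so was its level with Y15, apart from K1 replicate 2. ASNS rose by a mean change of 2.19 (standard error 0.167, adjusted p = 5.12e-06), or 4.55-fold. Its other probe changed by 1.55.

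ATF3, a stress-induced transcription factor, had log2 signals of 9.81 and 9.98 with Y15 against 7.09 and 7.02 untreated in TPC1, 9.39 and 9.33 against 7.61 and 7.71 in BCPAP, and 8.97 and 7.28 against 6.98 and 6.95 in K1. The rise went from 2.85 in TPC1 through 1.70 in BCPAP to 1.16 in K1, with a mean change of 1.90 (standard error 0.211, adjusted p = 5.41e-05). The F test called no difference among the lines for ATF3 (adjusted p = 0.0851). GDF15 is a secreted stress cytokine. It had 8.62 and 8.64 with Y15 against 6.96 and 6.97 untreated in TPC1, 11.29 and 11.25 against 8.48 and 8.82 in BCPAP, and 12.55 and 9.99 against 8.43 and 8.39 in K1. The 2 Y15 arrays of K1 stood further apart than in any other group of this gene, and the mean change was 2.38 (standard error 0.319, adjusted p = 0.000181), with no difference among the lines called (adjusted p = 0.482).

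Of 19 measured genes of the ATF4 and CHOP stress response, 18 were called higher, 0 lower, and 12 were shared, with a median mean change of 0.98. ATF4 itself rose by 0.79 (standard error 0.109). PPP1R15A, the phosphatase subunit that ends the stress response, rose by 1.61, SESN2, a stress-induced inhibitor of mTORC1, by 1.14, CEBPB, a transcription factor that pairs with ATF4, by 1.12, and CHAC1, which degrades glutathione, by 0.98. DDIT3 (mean change 1.32) and DDIT4 (0.81), an inhibitor of mTORC1, were called higher but were not beyond the untreated arrays on every Y15 array. VLDLR, a lipoprotein receptor, was the member not called (0.05). The median of the list was 1.56 and 1.67 on the TPC1 arrays with Y15, 1.00 and 1.12 on those of BCPAP, and 0.88 and 0.18 on replicates 1 and 2 of K1. Without K1 replicate 2 with Y15 again 18 were called higher, and 14 were with median centring in place of quantile normalization.

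Genes of serine, asparagine, proline and folate metabolism rose in part. Of 14 measured, 10 were called higher and 2 lower, 6 and 1 were shared, and the median mean change was 0.49. All of the serine pathway enzymes rose. PHGDH, which takes the committed step, rose by 1.09, PSAT1, the next enzyme, by 1.72, PSPH, the last, by 0.45, and SHMT2, which passes serine carbon to mitochondrial folate, by 0.79. MTHFD2, a mitochondrial folate enzyme, had log2 signals of 10.52 and 10.47 with Y15 against 8.61 and 8.57 untreated in TPC1, 9.53 and 9.52 against 8.37 and 8.39 in BCPAP, and 10.04 and 9.43 against 8.79 and 8.7 in K1. Being shared, MTHFD2 had by definition no overlap between the groups in any line. Its mean change was 1.35 (standard error 0.0847, adjusted p = 1.65e-06), with a difference between lines (adjusted p = 0.0202). SHMT1, the cytosolic counterpart of SHMT2, fell by 0.51. MTHFD1, a cytosolic folate enzyme, and ALDH1L2, a mitochondrial one, were not called (-0.15 and 0.03). ALDH18A1, which makes the precursor of proline, fell by 0.42 in shared fashion.

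Amino acid transporters and the enzymes that load amino acids on tRNA rose together with these. Of 13 transporters, 9 were called higher, 0 lower and 4 were shared, with a median mean change of 0.30. SLC3A2, the heavy chain that carries several transporters to the membrane, had log2 signals of 11.17 and 11.35 with Y15 against 10.44 and 10.53 untreated in TPC1, 11.34 and 11.29 against 9.86 and 9.89 in BCPAP, and 11.38 and 9.41 against 9.19 and 9.27 in K1. In K1 nearly all of the rise was on replicate 1. The mean change was 1.13 (standard error 0.246, adjusted p = 0.00398), and without BCPAP, with fewer arrays, SLC3A2 was no longer called. SLC1A5, a glutamine transporter, rose by 1.14, SLC6A9, a glycine transporter, by 0.77 and SLC38A1, another glutamine transporter, by 0.33. The mean change of SLC6A9 includes BCPAP, where untreated cells were not above background and the rise was at least 2.06-fold, a bound set from the lowest signal above background.

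Of 18 cytosolic aminoacyl-tRNA synthetases, 16 were called higher, 1 lower and 10 were shared, with a median mean change of 0.43. With median centring 9 were called higher. GARS1, which loads glycine, had log2 signals of 12.51 and 12.62 with Y15 against 11.6 and 11.51 untreated in TPC1, 12.25 and 12.27 against 11.15 and 11.09 in BCPAP, and 12.33 and 11.65 against 10.96 and 11.08 in K1. The rise was 1.02, 1.14 and 0.97 in TPC1, BCPAP and K1, a spread smaller than the gap between the 2 Y15 arrays of K1. WARS1 (tryptophan) rose by 1.32, MARS1 (methionine) by 1.08, SARS1 (serine) by 1.05 and YARS1 (tyrosine) by 0.90. QARS1 (glutamine) fell by 0.18, and FARSB, a subunit of the phenylalanine enzyme, was not called (-0.04). The 16 measured mitochondrial synthetases had a median mean change of 0.05, with 3 called higher and 1 lower. SARS2, the mitochondrial serine enzyme, fell by 0.47 in shared fashion while its cytosolic counterpart rose.

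The promoters of these genes were searched, on both strands, for the C/EBP-ATF response element written TGATGNAA. The windows run from 250 bases before to 50 bases after the start of a gene in RefSeq (GRCh38.p14), and 9906 of the 12378 genes tested had one. The element was in 1.79% of those, in 3.67% of all 27305 promoters and in 2.95% of those of shared genes that rose. It was in 5 of 15 promoters of cytosolic tRNA synthetases, 4 of 12 of amino acid transporters, 3 of 10 of the serine and asparagine list and 2 of 16 of the ATF4 list. Of the 53 genes of these lists called higher, 43 had a promoter in the table and 13 held the element, each of them in 1 place. The promoter of ASNS is shown because this gene rose in each line from like levels. It lies on the minus strand at chr7:97872359-97872658 and holds the element, in capitals, at position -68 from the start.
ASNS: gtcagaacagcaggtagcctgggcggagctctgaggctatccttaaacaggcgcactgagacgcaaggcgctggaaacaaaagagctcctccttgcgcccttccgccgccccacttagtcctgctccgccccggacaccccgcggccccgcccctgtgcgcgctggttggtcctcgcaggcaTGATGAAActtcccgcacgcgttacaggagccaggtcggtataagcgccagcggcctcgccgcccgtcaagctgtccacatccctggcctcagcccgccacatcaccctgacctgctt
The matches in tRNA synthetases are set beside the remaining ones among genes of these lists called higher. The variable base and the neighbouring letters can so be compared. Each is read along the element, with up to 10 bases on either side.
AARS1 (chr16:70289676-70289703, plus strand): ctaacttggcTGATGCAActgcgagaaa
IARS1 (chr9:92293693-92293720, plus strand): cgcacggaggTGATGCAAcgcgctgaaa
MARS1 (chr12:57488054-57488081, minus strand): aatccctcgcTGATGCAAccggaaccgg
NARS1 (chr18:57621805-57621832, minus strand): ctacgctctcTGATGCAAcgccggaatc
TARS1 (chr5:33440957-33440984, minus strand): ctggaccagcTGATGCAAtcgaaaggcg
CHAC1 (chr15:40953252-40953279, minus strand): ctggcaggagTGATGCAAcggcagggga
GOT1 (chr10:99430805-99430832, plus strand): ctgccgagaaTGATGCAAccaatgcaat
MTHFD1L (chr6:150866347-150866374, plus strand): ccgccggctcTGATGCAAtcgcgccggg
ATF3 (chr1:212565206-212565233, plus strand): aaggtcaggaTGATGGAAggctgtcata
SLC38A1 (chr12:46266503-46266530, minus strand): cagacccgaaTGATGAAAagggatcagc
SLC7A1 (chr13:29595664-29595691, minus strand): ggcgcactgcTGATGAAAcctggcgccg
SLC3A2 (chr11:62881726-62881748, minus strand): ggagcTGATGTAAggagtcctgc
All 5 tRNA synthetase genes carried the same 8 letters. A match is a description of the sequence, and TRIB3, PSAT1 and GARS1, which rose as much as many of the genes shown, had no match in this window.

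**Figure D2:**
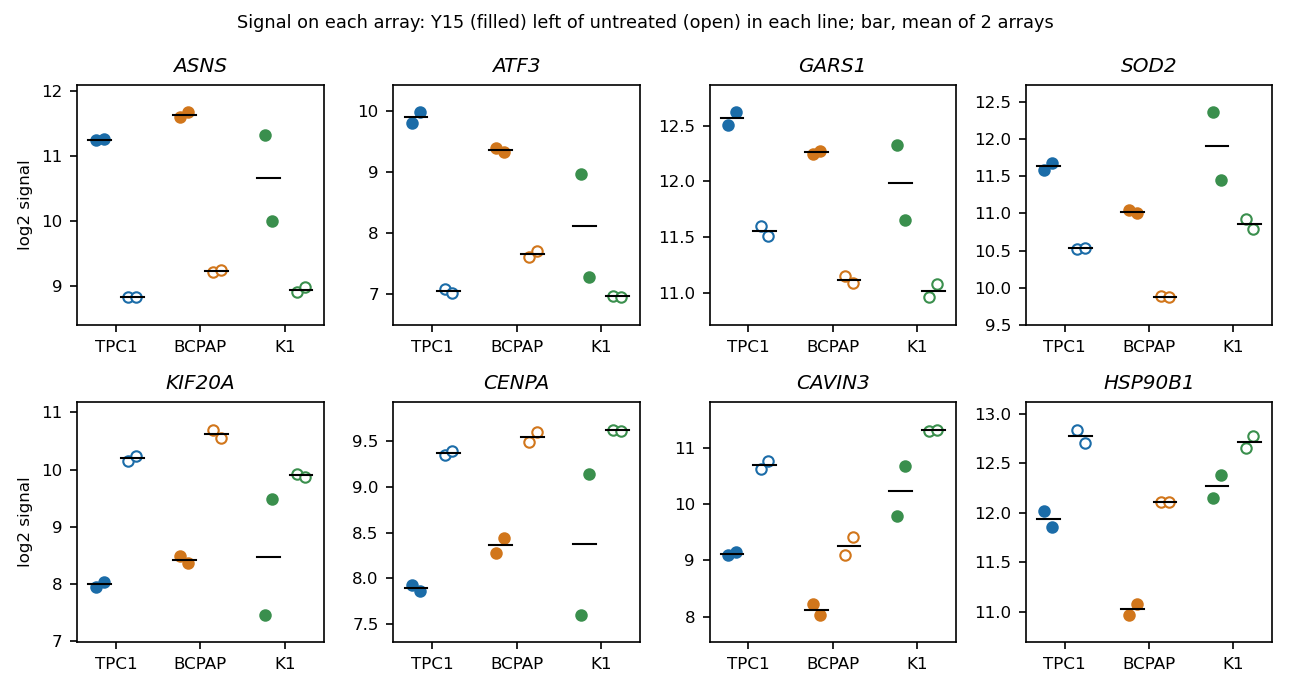
Log2 signal (vertical axis) of 8 shared genes on each of the 12 arrays, with filled points for Y15 to the left of open points for untreated cells in TPC1, BCPAP and K1, and bars for the mean of 2 arrays. ASNS, ATF3, GARS1 and SOD2 were higher with Y15 in each line, and KIF20A, CENPA, CAVIN3 and HSP90B1 were lower.

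Genes of inflammation were the other group that stood high among the shared genes. Of 21 NF-kB regulators and cytokines, 15 were called higher and 1 lower, 9 and 1 were shared, and the median mean change was 0.59. SOD2, the mitochondrial superoxide dismutase and a well-known NF-kB target, had log2 signals of 11.59 and 11.68 with Y15 against 10.52 and 10.54 untreated in TPC1, 11.04 and 11 against 9.89 and 9.87 in BCPAP, and 12.36 and 11.45 against 10.92 and 10.79 in K1. The change was 1.11, 1.14 and 1.05 in TPC1, BCPAP and K1, with a mean of 1.10 (standard error 0.119, adjusted p = 4.69e-05). IL24, a cytokine of the interleukin 10 family, rose by 2.01. By the probe used, IL24 stayed under the background limit in TPC1 cells without Y15, and rose there at least 6.31-fold. The other probe of IL24 had a mean change of 1.04, and changed by 0.82 in TPC1. CXCL2, a neutrophil chemokine, had signals of 9.59 and 9.65 with Y15 against 8.43 and 8.2 untreated in TPC1, 8.17 and 8.42 against 7.56 and 7.56 in BCPAP, and 12.39 and 11.55 against 11.14 and 11.06 in K1. K1 cells had far more CXCL2 signal than the other lines without Y15, and it rose there too, for a mean change of 0.97 (standard error 0.118). IL1A rose by 1.29. Other members had Y15 arrays beyond the untreated ones in each line while most of the mean change came from 1 line. CXCL8, another neutrophil chemokine, changed by 3.54 in TPC1 but by 0.66 and 0.27 in BCPAP and K1. IL6 changed by 1.77 and IL1B by 1.64 in BCPAP, but IL6 only by 0.16 and 0.09 and IL1B by 0.15 and 0.08 in TPC1 and K1. TNFAIP3, which damps NF-kB, changed by 1.52, 0.14 and 0.43 in TPC1, BCPAP and K1. The F test called a difference between lines for each of these (adjusted p = 1.73e-06 for CXCL8, 5.54e-06 for IL6, 4.70e-06 for IL1B and 0.00523 for TNFAIP3). Without TPC1, or in an additive model, 9 of the 21 were called higher. CCL2, a monocyte chemokine, fell by 0.44 in shared fashion.

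Cytokine and innate immune genes outside the list also rose. LY96, the partner of the endotoxin receptor, rose by 1.36 (standard error 0.142), and IL13RA2, the decoy receptor of interleukin 13, by 1.27 (standard error 0.0983). IL13RA2 was likewise under that limit in TPC1 cells without Y15 and rose there at least 2.69-fold. CD68, a lysosomal protein of macrophages that many cultured cells also make, was the only leukocyte marker of 7 above background on all arrays, and rose by 0.57 in shared fashion. Interferon-stimulated genes did not move alike. Their 20 members had a median change of 0.00 for TPC1, 0.80 for BCPAP and -0.01 for K1, and 15 were called higher, 1 lower and 3 shared. Without BCPAP 2 were called higher and 3 lower, and with median centring 8 and 0. ISG15, a ubiquitin-like protein, was shared, with changes of 0.56, 1.35 and 0.22 in TPC1, BCPAP and K1.

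Stress pathways beside ATF4 rose as well. Of 23 p53 targets, 17 were called higher, 0 lower and 7 were shared, with a median mean change of 0.30. By line the median was 0.64 for TPC1, 0.18 for BCPAP and 0.16 for K1. The F test called a difference between lines for 16 of the 23. The paper gives p53 mutations for BCPAP and K1, and their part in these values was not tested. CDKN1A, the cell cycle inhibitor p21, had log2 signals of 13.46 and 13.44 with Y15 against 11.13 and 11.16 untreated in TPC1, 10.77 and 10.65 against 9.98 and 10.03 in BCPAP, and 13.35 and 12.76 against 11.84 and 12.05 in K1. CDKN1A was shared, and its rise differed between lines (adjusted p = 0.00122), with 2.31 in TPC1, 0.71 in BCPAP and 1.11 in K1. PHLDA3, an inhibitor of AKT, rose by 0.85, TIGAR, which lowers glycolytic flux, by 0.76, PMAIP1, the BH3 protein NOXA, and TNFRSF10B, a death receptor, both by 0.56, and MDM2, the ligase of p53, by 0.30. GADD45A, which is also a target of ATF4, rose by 1.10. With median centring 10 of the 23 were called higher, and without TPC1 9 were called higher and 1 lower.

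Of 20 targets of NRF2, which drives the oxidative stress response, 12 were called higher, 0 lower and 7 were shared, with a median mean change of 0.31. TXNRD1, thioredoxin reductase, had log2 signals of 11.79 and 11.93 with Y15 against 9.44 and 9.53 untreated in TPC1, 11 and 11.05 against 10.76 and 10.53 in BCPAP, and 11.81 and 10.82 against 9.73 and 10.06 in K1. The rise in BCPAP, 0.38, was small beside 2.38 in TPC1 and 1.42 in K1 (adjusted p = 0.00629 for the difference between lines). SRXN1, which repairs peroxiredoxins, rose by 1.13, NQO1, a quinone reductase, by 0.73 (0.19 in TPC1, 1.05 in BCPAP and 0.94 in K1), TALDO1 of the pentose phosphate pathway by 0.58 and ME1, malic enzyme, by 0.47. HMOX1, heme oxygenase, had the largest mean change of the list (1.6) but was not shared. Metallothioneins and zinc export, with 5 of 7 called higher, had 0 shared members and a median of 0.21. MT1X, whose probe may also bind related metallothioneins, changed by 0.97, 0.65 and 0.08 in TPC1, BCPAP and K1.

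Of 17 chaperones and folding enzymes of the endoplasmic reticulum (ER), 10 were called lower and 4 higher, 8 and 0 were shared, and the median mean change was -0.35. HSP90B1, the ER form of HSP90, had log2 signals of 12.02 and 11.86 with Y15 against 12.84 and 12.7 untreated in TPC1, 10.97 and 11.08 against 12.11 and 12.11 in BCPAP, and 12.15 and 12.38 against 12.65 and 12.77 in K1. HSP90B1 was shared and fell by 0.79 (standard error 0.0563, adjusted p = 3.8e-06). PDIA6, a disulfide isomerase, had signals of 9.64 and 9.69 with Y15 against 10.26 and 10.43 untreated in TPC1, 9.49 and 9.29 against 9.92 and 9.98 in BCPAP, and 9.84 and 10.07 against 10.61 and 10.71 in K1. The fall was of like size in the 3 lines, at -0.68, -0.56 and -0.70. SDF2L1 and MANF, both induced by the unfolded protein response in other settings, fell by 0.62 and 0.47, and HSPA5 (BiP), the main ER chaperone, fell by 0.54 without being shared. CALR, CANX and P4HB, which fold glycoproteins and form disulfides, fell by 0.38, 0.36 and 0.35. The 4 called higher were DNAJB9 (0.63), a cochaperone, XBP1 (0.46), the transcription factor of the unfolded protein response, DNAJC3 (0.24), another cochaperone, and HYOU1 (0.15), an ER chaperone of the HSP70 family. Over the list the median was -0.33 on replicate 1 and -0.23 on replicate 2 of K1, closer together than for the ATF4 list. With median centring 6 were called lower and 1 higher, and without TPC1 8 and 1.

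Of 22 cytosolic heat shock proteins and cochaperones, 13 were called higher, 1 lower and 1 was shared, with a median mean change of 0.21, and medians of 0.41 for TPC1, 0.01 for BCPAP and 0.18 for K1. The shared one was HSP90AB1, the constitutive cytosolic HSP90, with changes of 0.51, 0.23 and 0.24 in TPC1, BCPAP and K1 and a mean of 0.33 (standard error 0.0494). HSPA6, HSPA1A and HSPA1B, inducible HSP70 genes, were called higher, with mean changes of 2.20, 0.51 and 0.88, and were not shared. HSPA1A and HSPA1B are near-identical, so their values are not independent. With median centring 4 of the 22 were called higher, and without TPC1 5. Of 27 proteasome subunits 16 were called higher, 1 lower and 4 were shared, with median changes of 0.35 for TPC1, -0.12 for BCPAP and 0.36 for K1. With median centring 2 of the 27 were called higher, and without TPC1 5. PSMD14, the deubiquitinase of the lid, rose by 0.47, and the core subunits PSMA5, PSMA1 and PSMB4 by 0.34, 0.30 and 0.25, and with median centring none of these 4 was called. PSMA1 changed by only 0.05 in BCPAP. Its other probe changed by 0.52, -0.27 and 0.44 in TPC1, BCPAP and K1, so a rise in BCPAP was not borne out by both probes. Of 17 autophagy genes 5 were called higher, 1 lower and 4 were shared, with a median mean change of 0.10, and 2 were called higher with median centring. Over all genes tested 19.3% were called higher. SQSTM1, the cargo receptor p62, had log2 signals of 13.01 and 13.18 with Y15 against 12.06 and 11.93 untreated in TPC1, 13.3 and 13.44 against 12.62 and 12.76 in BCPAP, and 13.47 and 12.41 against 12.01 and 12.05 in K1. It rose by 0.90 (standard error 0.139). MAP1LC3B, the membrane-bound partner of SQSTM1, rose by 1.18 and was not shared, BECN1 and ATG3, which act in forming autophagosomes, both rose by 0.35, and WIPI1, which marks early autophagosomes, by 0.42.

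**Figure D3:**
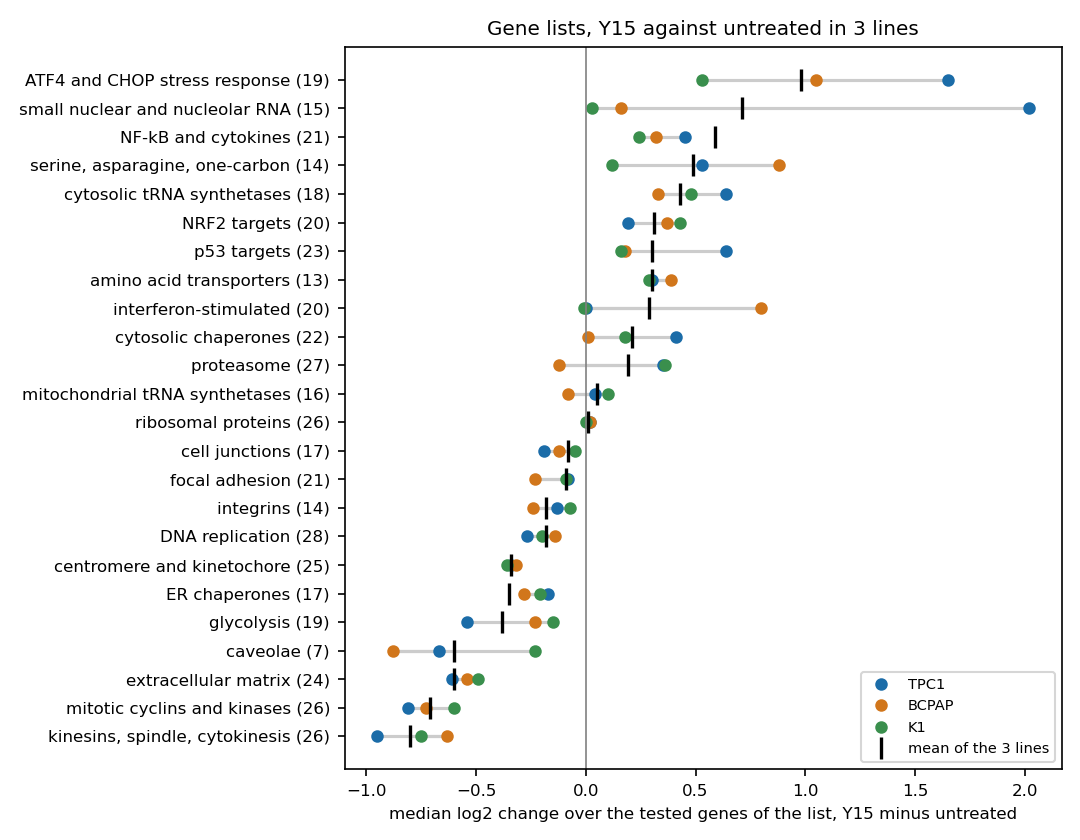
Median change in log2 signal, Y15 minus untreated, over the tested genes of 24 lists (horizontal axis), with a point for each line and a black bar for the median of the mean over the 3 lines. The number of tested genes stands in brackets. In every line, lists of the ATF4 response, amino acids and cytosolic tRNA synthetases lay above 0 and lists of mitosis, matrix and glycolysis below 0. The mitochondrial tRNA synthetases had a median of -0.08 in BCPAP. Small nuclear RNA rose most in TPC1 and interferon genes in BCPAP.

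The shared genes that fell were led by genes of mitosis. The first 15 by the line with the least change were CGNL1, KIF20A, CENPA, CDKN3, CCNB2, CAVIN3, ASPM, NUSAP1, CENPF, CD24, FAM83D, ZBED2, TOP2A, DPYSL3 and PRC1. KIF20A, a kinesin of cytokinesis, had log2 signals of 7.95 and 8.03 with Y15 against 10.15 and 10.24 untreated in TPC1, 8.48 and 8.37 against 10.7 and 10.56 in BCPAP, and 7.46 and 9.49 against 9.93 and 9.87 in K1. Replicate 1 of K1 with Y15 had the lowest signal of the 12 arrays and replicate 2 the highest of the Y15 arrays. The mean change of KIF20A was -1.94 (standard error 0.252, adjusted p = 0.000146), a 3.85-fold fall. CENPA, the histone that marks centromeres, had signals of 7.92 and 7.86 with Y15 against 9.35 and 9.39 untreated in TPC1, 8.28 and 8.44 against 9.49 and 9.6 in BCPAP, and 7.6 and 9.14 against 9.63 and 9.61 in K1. The untreated arrays lay within a narrow range and each Y15 array lay below all of them. CENPA fell by 1.30 (standard error 0.193, adjusted p = 0.000363).

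All 26 measured kinesins, spindle and cytokinesis genes were called lower, and 12 were shared, with a median mean change of -0.80. They included ASPM, a spindle pole protein (-1.34), NUSAP1, which bundles spindle microtubules (-1.28), PRC1, which crosslinks the central spindle (-1.15), KIF11, which separates the spindle poles (-0.94), and RACGAP1, which helps place the cleavage furrow (-0.89). Of 26 mitotic cyclins, kinases and their regulators, 19 were called lower, 0 higher and 10 were shared, with a median of -0.71. CCNB2, cyclin B2, fell by 1.34, CDKN3, a phosphatase of cyclin-dependent kinases, by 1.27, CCNF, cyclin F, by 0.98, CCNA2, cyclin A2, by 0.94, UBE2C, which serves the anaphase-promoting complex, by 0.84 and PLK1, a mitotic kinase, by 0.77. CDC25A, a phosphatase that acts earlier in the cycle, had a mean change of 0.12 and was not called. Of 25 centromere and kinetochore genes, 14 were called lower, 0 higher and 7 were shared, with a median of -0.34. CENPF, CENPE and SPC24, of the outer kinetochore, fell by 1.31, 0.98 and 0.91, and HJURP, which deposits CENPA, by 0.94. Members not called were found at the inner kinetochore, as CENPH, CENPN and CENPQ (-0.05, -0.09 and 0.10), and at the outer, as DSN1, SKA1 and SKA3 (-0.12, -0.01 and -0.23).

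In K1 these falls stood mainly on 1 of the 2 Y15 arrays. The median of the spindle list was -1.46 on replicate 1 and -0.05 on replicate 2 of K1, against -0.93 and -1.01 on the Y15 arrays of TPC1 and -0.59 and -0.67 on those of BCPAP. For the cyclin and kinase list the values were -1.27 and -0.03 in K1, and for the kinetochore list -0.88 and 0.08. Without K1 replicate 2 with Y15, 26, 25 and 23 genes of the 3 lists were called lower. With median centring 13, 10 and 5 were, and without TPC1 5, 7 and 4. Leaving out 1 array at a time gave 9 to 23 kinetochore genes called lower, with 9 for each array of TPC1, replicate 1 of untreated K1, replicate 2 of untreated BCPAP and both Y15 arrays of BCPAP. These arrays measure RNA of whole cultures, so fewer cells in mitosis and less RNA per cell cannot be told apart.

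Genes of DNA replication had a median nearer to 0 than the mitotic lists. Of 28 measured, 9 were called lower, 1 higher and 2 were shared, with a median mean change of -0.18. Over all genes tested 18.9% were called lower. The 2 shared genes were MCM6, a subunit of the replicative helicase, which fell by 0.63 (standard error 0.0666), and TYMS, thymidylate synthase, which fell by 0.53. PCNA, the sliding clamp and also a p53 target, was the gene called higher (0.14), and CDC6, MCM10 and RRM1 were not called (-0.02, 0.02 and -0.07). The median of the list was -0.60 on replicate 1 and 0.20 on replicate 2 of K1, and without replicate 2 24 of the 28 were called lower. Leaving out each other array in turn gave 3 to 11 called lower, median centring and leaving out TPC1 gave 1 each, and leaving out BCPAP gave 3. Of 15 replication-dependent histone genes, which are near-identical in part and may share probes' targets, 5 were called higher and 2 lower, 1 and 1 were shared, and the median was 0.03, with 0 called either way with median centring. H4C8, the shared one that rose, was above background on 1 of the 4 K1 arrays. TOP2A, a topoisomerase of late cell cycle, fell by 1.19 (standard error 0.225), and without TPC1 it was not called.

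**Figure D4:**
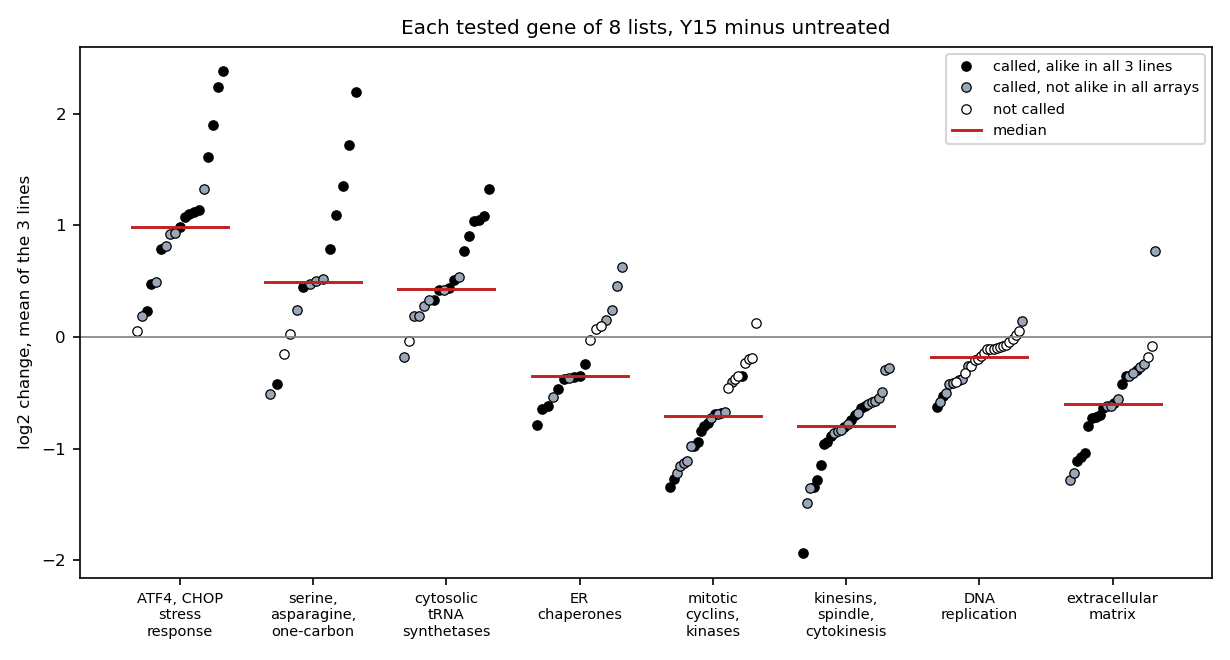
Mean change in log2 signal over the 3 lines, Y15 minus untreated (vertical axis), of each tested gene of 8 lists. Black points were called and beyond the untreated arrays on every Y15 array, grey points were called without that, open points were not called, and red bars are medians. The medians are 0.98 for the ATF4 list and -0.80 for the spindle list, and DNA replication lies nearer to 0 than the mitotic lists.

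The promoters of the mitotic genes were searched on both strands for the CHR element, TTTGAA, and for CCAAT. Among promoters of genes tested, 10.1% held CHR, 37.1% held CCAAT and 4.29% held both. CHR was in 18 of 24 promoters of the spindle list (75%), 10 of 20 of the cyclin and kinase list and 11 of 21 of the kinetochore list, and in 12% of those of all shared genes that fell. Of the 15 leading shared genes that fell, 13 had a promoter in the table, and 8 of these held both elements. In the matrix list, which also fell, 3 of 19 held CHR. The promoters of CCNB2, CENPA and PRC1 are shown, with both elements in capitals (CCAAT reads ATTGG on the other strand), since in each of them CHR lies close to the start of the gene. They are at chr15:59104896-59105195 and chr2:26785806-26786105 on the plus strand and chr15:90994486-90994785 on the minus strand.
CCNB2: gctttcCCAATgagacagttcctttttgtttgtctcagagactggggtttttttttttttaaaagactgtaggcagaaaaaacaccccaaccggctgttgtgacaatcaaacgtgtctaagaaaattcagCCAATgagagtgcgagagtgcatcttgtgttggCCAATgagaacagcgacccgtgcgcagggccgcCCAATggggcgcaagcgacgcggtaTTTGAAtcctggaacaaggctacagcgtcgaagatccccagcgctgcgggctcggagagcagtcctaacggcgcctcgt
CENPA: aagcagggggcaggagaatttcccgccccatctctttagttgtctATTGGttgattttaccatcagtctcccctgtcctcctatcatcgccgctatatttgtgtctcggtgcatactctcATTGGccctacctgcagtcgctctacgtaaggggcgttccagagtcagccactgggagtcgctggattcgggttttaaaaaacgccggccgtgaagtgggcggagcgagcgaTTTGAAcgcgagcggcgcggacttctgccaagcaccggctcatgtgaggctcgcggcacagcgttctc
PRC1: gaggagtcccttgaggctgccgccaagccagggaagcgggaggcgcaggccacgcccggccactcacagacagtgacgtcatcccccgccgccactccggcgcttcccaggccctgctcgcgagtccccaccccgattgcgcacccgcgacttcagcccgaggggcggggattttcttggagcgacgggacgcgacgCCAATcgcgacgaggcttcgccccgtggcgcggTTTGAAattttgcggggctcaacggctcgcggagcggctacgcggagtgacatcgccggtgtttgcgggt
CHR starts at position -29 from the start of CCNB2, -18 from that of CENPA and -20 from that of PRC1, and CCAAT occurs 4 times, 2 times and 1 time. KIF20A, which fell most of the mitotic genes, held 2 CCAAT boxes and no CHR in this window. CCAAT was in 16 of 17 promoters of ER chaperones, where CHR was in 1.

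Genes of the extracellular matrix were lower in all 3 lines. Of 24 collagens, laminins and other matrix genes, 21 were called lower and 1 higher, 12 and 0 were shared, and the median mean change was -0.60. Their median lay at -0.60 and -0.61 on the Y15 arrays of TPC1, -0.59 and -0.50 on those of BCPAP, and -0.67 and -0.31 on replicates 1 and 2 of K1. SPARC, a collagen-binding matrix protein, had log2 signals of 9.41 and 9.21 with Y15 against 10.57 and 10.54 untreated in TPC1, 8.98 and 8.97 against 9.73 and 9.65 in BCPAP, and 10.09 and 10.2 against 11.33 and 11.3 in K1. The 2 Y15 arrays of K1 gave nearly the same value for this gene, and SPARC fell by 1.04 (standard error 0.0471, adjusted p = 3.74e-07). COL8A1, a collagen VIII chain, had signals of 10.76 and 10.76 with Y15 against 11.75 and 11.59 untreated in TPC1, 8.77 and 9.0 against 10.57 and 10.58 in BCPAP, and 7.04 and 7.31 against 7.86 and 7.94 in K1. It fell most in BCPAP, by 1.69, with a mean change of -1.11 (standard error 0.0609) and a difference between lines (adjusted p = 0.00267).

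Chains of the fibrillar and basement membrane collagens fell together with these. COL5A2 fell by 1.08, COL5A1 by 0.64, COL4A1 and COL4A2, which form 1 basement membrane collagen, by 0.73 and 0.72, COL12A1 by 0.70 and LAMA5, a laminin chain, by 0.80, though LAMA5 changed by only -0.15 in K1. THBS1, thrombospondin 1 (-1.28), VCAN, the proteoglycan versican (-1.22), and FN1, fibronectin (-0.62), were called lower and were not shared. LAMB3, a laminin chain of epithelial basement membranes, was the gene called higher (0.77). Of 7 measured fibroblast markers, 3 were called lower and 2 of these, COL1A1 and PDPN, were shared, at -0.35 and -0.62, and the median was -0.10. COL1A1 was above background on 0 of the 2 Y15 arrays of TPC1, and PDPN was not called without TPC1. With median centring 14 of the 24 matrix genes were called lower.

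The lists of focal adhesion and integrin genes had medians nearer to 0 than the matrix list, and the transcript of FAK itself was not called. PTK2 had log2 signals of 11.15 and 11.01 with Y15 against 11.23 and 11.12 untreated in TPC1, 9.82 and 9.87 against 10.29 and 10.05 in BCPAP, and 11.19 and 11.51 against 11.36 and 11.28 in K1. Groups overlapped in TPC1 and in K1, and the mean change was -0.13 (standard error 0.0654, adjusted p = 0.143). Without K1 replicate 2 with Y15 it was -0.18, and without K1 it was -0.21, and PTK2 was then called lower. PTK2B, its close relative PYK2, had a mean change of -0.09 (adjusted p = 0.259). Of 21 focal adhesion genes, 6 were called lower and 2 higher, 5 and 0 were shared, and the median was -0.09. Over all genes tested 18.9% were called lower and 19.3% higher. VCL, vinculin, which ties integrin complexes to actin, had signals of 11.83 and 11.84 with Y15 against 12.42 and 12.46 untreated in TPC1, 10.69 and 11.03 against 11.51 and 11.4 in BCPAP, and 11.36 and 11.75 against 11.93 and 11.86 in K1. It fell by 0.51 (standard error 0.0746) and was not called with median centring, where 2 of the 21 were called lower. TNS3, tensin 3, fell by 0.83 (-1.91 in TPC1, -0.48 in BCPAP and -0.10 in K1), ACTN4, an actinin, and LIMS1, a partner of integrin-linked kinase, both by 0.35 and TGFB1I1, a paxillin relative, by 0.32. SRC, the kinase that binds FAK, was called higher (0.22) and PXN, paxillin, was not called (0.09). Of 14 integrin subunits 6 were called lower, 1 higher and 3 were shared, with a median of -0.18, and 3 were called lower with median centring. ITGA3 and ITGB5 both fell by 0.49. ITGB4 also met the definition of shared, but it was above background on 0 of the 4 K1 arrays (a change of -0.04) and on 0 of the 2 Y15 arrays of TPC1, so no fall was measured in K1. ITGA2 was called higher (0.25).

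CGNL1, paracingulin of cell junctions, had log2 signals of 9.66 and 9.57 with Y15 against 12.1 and 11.91 untreated in TPC1, 7.58 and 7.72 against 9.21 and 9.07 in BCPAP, and 9.31 and 10.44 against 11.86 and 11.87 in K1. Even K1 replicate 2 lay well below the untreated arrays, and CGNL1 headed the shared genes that fell, with a mean change of -1.96 (standard error 0.148, adjusted p = 4.64e-06). Of 17 junction genes, 5 were called lower, 1 higher and 2 were shared, with a median of -0.08 (2 called lower with median centring, and 3 without replicate 1 of BCPAP with Y15), and JUP, plakoglobin, was the other shared one (-0.82). All 7 genes of caveolae, small pits of the plasma membrane, were called lower, with a median of -0.60, and 2 were shared. The median was -0.41 and -0.06 on replicates 1 and 2 of K1 with Y15, and 4 of the 7 were called lower with median centring. CAVIN3 had signals of 9.09 and 9.15 with Y15 against 10.62 and 10.76 untreated in TPC1, 8.22 and 8.04 against 9.09 and 9.41 in BCPAP, and 9.78 and 10.68 against 11.3 and 11.32 in K1. It fell by 1.26 (standard error 0.125), and CAV1, the main caveolin, fell by 0.81 with a difference between lines (adjusted p = 0.027). CD24, a surface glycoprotein, fell by 1.56 and DPYSL3, which organises the cytoskeleton, by 1.31. PAX8, the thyroid transcription factor, was the shared gene among 8 measured thyroid and epithelial markers (-0.54), of which 5 were called lower and 0 higher, with a median of -0.18. Of 17 YAP and TEAD targets 2 were called higher and 3 lower, 1 and 1 were shared, and the median was -0.05.

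Of 19 glycolysis genes 13 were called lower, 0 higher and 7 were shared, with a median mean change of -0.38. PGK1, phosphoglycerate kinase, had log2 signals of 11.4 and 11.45 with Y15 against 12.56 and 12.55 untreated in TPC1, 11.87 and 11.79 against 12.34 and 12.37 in BCPAP, and 11.62 and 11.76 against 12.04 and 12.01 in K1. The fall was largest in TPC1, at 1.13, against 0.53 in BCPAP and 0.34 in K1 (adjusted p = 0.00113 for the difference between lines). PFKL, a phosphofructokinase, fell by 0.67, SLC2A1, the glucose transporter GLUT1, by 0.66, TPI1, an isomerase, by 0.49, PFKFB3, which activates phosphofructokinase, and PKM, pyruvate kinase, both by 0.47, and LDHA, lactate dehydrogenase, by 0.38. GAPDH, ENO1 and GPI, of the same pathway, were not called (-0.02, -0.08 and -0.08). BNIP3 and BNIP3L, mitophagy receptors that respond to low oxygen as many glycolysis genes do, fell by 0.79 and 0.75. With median centring 8 of the 19 were called lower, and without TPC1 6.

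BNIP3 and BNIP3L were the 2 shared members that fell among 18 genes of the BCL2 family, of which 6 were called higher, 3 lower and the median was 0.01. PMAIP1 (0.56), which promotes cell death, and BCL2L1 (0.52), whose main product BCL-XL prevents it, were the 2 shared members that rose. MCL1, another survival protein, was called higher (0.34), while BAX, BBC3 and BCL2L11, which promote death, were not called (0.12, 0.08 and -0.02). Outputs of the MAPK pathway were mixed. Of 17, 6 were called higher and 3 lower, 4 and 2 were shared, and the median was 0.14. With median centring 1 was called higher and 3 lower. DUSP5, a phosphatase of ERK, had log2 signals of 10.87 and 10.87 with Y15 against 9.36 and 9.35 untreated in TPC1, 11.36 and 11.51 against 9.86 and 9.61 in BCPAP, and 11.14 and 10.54 against 10.15 and 10.2 in K1. It rose by 1.29 (standard error 0.0889, adjusted p = 2.88e-06). The feedback inhibitor SPRY4 rose by 0.44, whereas its relatives SPRY2 and SPRY1 fell by 0.40 and 0.47. Of 17 immediate early genes 6 were called higher, 4 lower and 2 were shared, with a median of 0.16, and the shared ones, IER3 (0.32) and MYC (0.29), were not called with median centring, where 1 of the 17 was called higher and 0 lower.

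The lists of ribosomal proteins, respiratory chain, cholesterol synthesis and fatty acid synthesis had medians of -0.09 to 0.01. Over all genes tested 19.3% were called higher and 18.9% lower. Of 26 cytosolic ribosomal protein genes 2 were called higher and 3 lower, 1 and 1 were shared, and the median mean change was 0.01. Of 24 respiratory chain and ATP synthase genes 1 was called higher and 5 lower, 0 were shared, and the median was -0.09, with 0 called lower with median centring. Of 17 genes of cholesterol synthesis 3 were called higher and 3 lower, 1 and 2 were shared, and the median was -0.03. TM7SF2, a sterol reductase, was lower in all lines, with a mean change of -0.62. Of 14 genes of fatty acid synthesis 2 were called higher and 6 lower, 0 were shared, and the median was -0.09. SCD, a desaturase, fell by 1.07 on the mean, and its changes of -2.17, -0.16 and -0.88 in TPC1, BCPAP and K1 differed between lines (adjusted p = 0.00172). Of 15 small nuclear and nucleolar RNA genes 13 were called higher, 0 lower and 3 were shared, but TPC1 had a median change of 2.02, BCPAP of 0.16 and K1 of 0.03, and without TPC1 1 was called higher. RNU4-1, 1 of the 3 shared, was above background on 0 of the 4 BCPAP arrays and 1 of the 4 K1 arrays, with changes of 0.08 and 0.17, so a rise in those lines was not measured. RNU4ATAC, of the minor spliceosome, was the one with the most even change, at 0.88, 0.93 and 0.89, and in K1 it stood on replicate 1 (9.08 and 7.75 with Y15 against 7.65 and 7.4 untreated).

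A few genes called for the mean moved in opposite directions. MARCHF4, a ubiquitin ligase, changed by 2.32 in TPC1, -0.70 in BCPAP and 0.30 in K1. IFI27, an interferon-stimulated gene, had log2 signals of 12.36 and 12.42 with Y15 against 10.68 and 10.68 untreated in BCPAP, but 9.9 and 9.92 against 10.8 and 10.66 in K1, and 8.9 and 9.0 against 8.87 and 8.96 in TPC1. NAV2, which acts in cell migration, changed by 1.47, -0.77 and 0.51 in TPC1, BCPAP and K1. Their mean changes of 0.64, 0.31 and 0.40 therefore describe no line, and the difference between lines was called for each (adjusted p from 3.37e-07 to 0.00114).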

How the data were processed

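RNA of papillary thyroid cancer cell lines was measured on 12 Illumina bead arrays. The deposited table holds, for each array, the intensity of each probe as exported from GenomeStudio (named in the submitters' processing notes, version not given), and a deposited detection p-value against negative control beads. The authors also deposited log2 values after quantile normalization over the 12 arrays. The log2 values used here were computed from the intensities in the same way and differed from the deposited ones by at most 5e-09.

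Of 47323 probes, 47311 had a value, and by the platform annotation 30109 had 1 gene symbol, 8 several and 17194 none. In all 30070 were matched to RefSeq through their Entrez Gene numbers. A probe was kept where its detection p was under 0.05 on both arrays of at least 1 of the 6 groups (21600 probes), and a gene was represented by its brightest probe, leaving 12378 genes. The 6 group means were fitted with limma 3.58.1 in R 4.3.3, with 6 residual degrees of freedom, and the mean of the 3 within-line differences was tested with moderated variances (5.12 prior degrees of freedom). The difference between lines was tested by the F test of the same fit. P-values were adjusted by Benjamini-Hochberg over all genes.

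On simulated data with 200 changed genes, drawn for the mean of the 3 lines over 12378 genes, 98.5% of changes of 0.5, 98.5% of changes of 1 and 100% of changes of 2 on the log2 scale were called. In that simulation noise was independent for each gene and each change was the same in all 3 lines. Its shares may not hold for the real arrays, where changes differed between lines and between the Y15 arrays of K1. The number of arrays, 2 in each group, limits the precision of the changes reported here.

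The genes named in the text are the 15 shared genes in each direction with the largest change in the line where they changed least, up to 4 shared members of each list by the same rank, PTK2 and PTK2B, up to 2 members by lowest p of lists with no shared member, and 3 called genes with an opposite change over 1.5-fold in a line. Other members of a list are named to describe that list and were chosen after their values were seen. The 38 lists and the comparison itself were chosen with earlier results of these data known.

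Promoters are RefSeq windows of GRCh38.p14, searched on both strands. The alternatives were median centring, neqc background correction, the deposited normalized values, other filters and probe rules, array quality weights, an additive model, a replicate block, the rule of the methods (unadjusted p under 0.05 and 1.2-fold), and leaving out each array or line.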

Additional observations from a re-analysis of the deposited data

Results flagged for a closer look

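Of the changes on the 6 Y15 arrays, 1 array stood apart from the other 5 for 7 of the 126 named genes, by the gap to its neighbour over the whole range. Chance gives such a gap in about 1 in 20 independent groups. Genes measured on the same arrays are not independent, so the count was not tested against that rate. For 6 of the 7 it was replicate 2 of K1 with Y15, nearest to 0. The gap took 0.95 of the range for ASNS (a change of 1.06, against 2.37 to 2.44 on the other arrays), 0.857 for KIF20A (-0.41, against -2.44 to -2.15), 0.799 for TRIB3 (0.62, against 2.41 to 2.86), 0.706 for WARS1 (0.43, against 1.35 to 1.73), 0.669 for FAM83D (-0.28, against -1.60 to -1.16) and 0.645 for PHGDH (0.39, against 1.04 to 1.4). For PSMB4 it was replicate 1 of K1 with Y15, which was highest (0.58, against 0.10 to 0.25, or 0.694 of the range).

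For 39 of the 126 named genes the effect of Y15 differed between TPC1, BCPAP and K1 by the F test of limma. Over all genes tested the share was 18.5%. Some named genes, MARCHF4, IFI27 and NAV2, were chosen for opposite changes between lines, and others, such as ACSS2 and SCD, came from lists with no shared member. The count therefore depends in part on how genes were named and cannot be read as a rate. The values below are the adjusted p of the F test. Among stress and metabolic genes they were 0.0202 for MTHFD2, 0.00122 for CDKN1A, 0.0233 for GADD45A, 0.0133 for TIGAR, 0.00629 for TXNRD1, 0.0377 for SRXN1, 0.00467 for UPP1, 0.00401 for MT1X and 0.0138 for MT1G. Among genes of cytokines, interferon and signalling they were 0.00111 for IL1A, 0.00232 for ISG15, 0.0123 for IFIT3, 4.97e-07 for IFI27 and 0.0136 for DUSP5. Among genes of glycolysis, lipids, mitochondria and cell death they were 0.00113 for PGK1, 0.018 for PFKL, 0.0314 for SLC2A1, 0.00172 for SCD, 6.48e-06 for ACSS2, 0.00762 for COX5B, 0.0453 for NDUFA2, 0.046 for BNIP3, 0.00246 for BNIP3L and 0.0246 for PMAIP1. Among genes of matrix, membrane and junctions they were 0.016 for SPARC, 0.00267 for COL8A1, 0.0383 for CRIM1, 0.0174 for ITGB4, 0.027 for CAV1, 0.00117 for CD24 and 0.000394 for JUP. The others were 0.0223 for HSP90B1, 0.0352 for PSMA1, 0.0405 for PAX8, 0.0127 for ZBED2, 3.37e-07 for MARCHF4, 0.00114 for NAV2, 0.0052 for RNU1-1 and 1.40e-05 for RNU4-1. Among other shared members of the lists described in the report, chosen after their values were seen, it was 1.73e-06 for CXCL8, 5.54e-06 for IL6, 4.70e-06 for IL1B, 0.00523 for TNFAIP3, 0.00278 for CEBPB, 0.0209 for SESN2, 0.00251 for PSPH, 0.0328 for SHMT2, 0.021 for MDM2, 0.0203 for TNFRSF10B, 0.00183 for NQO1, 0.00831 for CALR, 0.0387 for SPRY1, 8.65e-06 for TNS3, 0.00342 for COL12A1, 0.00121 for LAMA5 and 0.0291 for PKM.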

How the results depend on the processing

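With quantile normalization 2384 genes were called higher and 2345 lower, 917 and 851 were shared, and 2293 differed between lines. Median centring gave 534 higher and 1037 lower, with 246 and 95 shared (217 and 72 of them among the shared genes of the quantile values), so that 34% of calls were higher, against 50.4% with quantile normalization, and 37 of the 126 named genes lost their call. An additive model called 1473 lower. The rule of the methods, unadjusted p under 0.05 and 1.2-fold, gave 1208 higher and 1323 lower, and asking for 1.5-fold and the same sign in each line left 48 and 61. Without TPC1 794 were higher, 813 lower and 261 differed between lines, and 23 named genes lost their call, among them PRC1 (-1.05, against -1.15 with all lines), TOP2A (-0.97, against -1.19), UBE2C (-0.82, against -0.84) and SCD (-0.53, against -1.07). Without BCPAP 1543 and 1528 were shared and 815 differed. Without K1 1691 and 1603 were shared. With fewer lines or arrays, a gene has to meet the rule for shared genes in fewer of them. Leaving out 1 array at a time, the lone array of its group being assumed to vary like the other groups, gave 1918 to 2944 higher, 1896 to 2948 lower, 886 to 1411 shared higher, 825 to 1333 shared lower and 1234 to 4344 that differed between lines. The most shared calls came without replicate 2 of K1 with Y15 (1411 and 1333), and the most that differed without replicate 1 (4344) or 2 (4314) of K1 with Y15. The fewest that differed (1234) came without replicate 1 of untreated TPC1. The mean change was -0.38 for IFI27 without BCPAP, -0.21 for MARCHF4 without TPC1 and -0.13 for NAV2 without TPC1, against 0.31, 0.64 and 0.40 with all lines. The cause of these differences was not tested. The labels do not say whether the replicate numbers pair the arrays. The differences between numbers, Y15 against untreated, correlated at 0.193 for TPC1, -0.182 for BCPAP and -0.00995 for K1. With 1 such value for each line, a pairing can be neither shown nor excluded. With a replicate block 2165 genes were higher, 2144 lower, 881 and 827 shared and 1578 differed between lines. Detection limits the genes near background, where a change is a bound.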

Other observations

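Of the probes above background with no gene symbol in the annotation, 4965 were tested in the same way. Of these, 451 were called higher with Y15 and 388 lower, and 163 and 157 were shared, or 6.45% together. These probes are not named here.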
